A study of Homo sapiens with 6 samples.

Results

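Zinc is stored, sensed and moved in cells by a small set of proteins. Metallothioneins are short, cysteine-rich proteins that bind zinc, copper and cadmium in the cytosol. MTF1 is the zinc-finger factor that senses free zinc and activates metallothionein genes through metal response elements. ZnT proteins (SLC30A genes) move zinc out of the cytosol and ZIP proteins (SLC39A genes) move it in, and SLC39A6, also called LIV-1, is known as an oestrogen-responsive gene of luminal breast tumours. The genes described here were chosen by symbol, with earlier results of these data known. They are 5 metallothioneins (MT1E, MT1F, MT1G, MT1X and MT2A), MTF1, the exporter SLC30A1 and 3 importers (SLC39A6, SLC39A10 and SLC39A11). All 10 were found among the 60656 genes of the deposited table.

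RNA was measured in parental ZR-75-1 cells, an established oestrogen receptor (ER)-positive luminal breast cancer line. Of the libraries, 3 came from cells given DMSO, the solvent, and 3 from cells given abemaciclib, an inhibitor of the cell cycle kinases CDK4 and CDK6, at 500 nM; both arms lasted 4 days in the same serum-containing medium. The results describe 1 cell line at 1 dose and 1 time. The labels only number the replicates, and the study's methods describe RNA sequencing in cell lines as run on independent cultures of each condition.

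Libraries held 3317860 to 3473916 counts with DMSO and 3344919 to 4013156 with abemaciclib. Levels are given as CPM, counts scaled to a common library size after TMM normalization, which corrects totals for differences in composition. The 3′ library kit reads transcript ends, so a CPM is not divided by transcript length and levels of different genes are compared on that scale only. All 7 luminal markers (ESR1, GATA3, FOXA1, KRT8, KRT18, KRT19 and EPCAM) were detected in both groups, whereas 6 of 7 markers of fibroblasts, basal cells, leukocytes and endothelium had 0 counts in every library. The exception, COL1A1, lay between 10.1 and 15.8 CPM across the 6 libraries. MKI67, a marker of dividing cells, averaged 526 CPM with DMSO (SD 31.4, n = 3) and 5.00 CPM with abemaciclib (SD 2.28, n = 3); its part in the results below was not tested.

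Metallothionein mRNA was much lower with abemaciclib, whereas transcripts of MTF1 and of the 4 member transporters were not called in either direction. Of the 10 genes, 8 had enough counts to be tested. At an adjusted P under 0.05, 3 were lower (MT2A, MT1F and MT1X, the last of which entered the test through its DMSO counts alone) and 0 were higher. The background was 13.3% of all 10863 genes tested called lower, 12.5% called higher and 25.7% called in either direction. At an unadjusted P under 0.05, SLC30A1 and SLC39A6 were higher. DESeq2 called SLC39A6 higher at its adjusted threshold. The median log2 fold change of the 8 genes was 0.15 against −0.0018 over all genes tested. In bulk RNA, fewer cells expressing a gene and less RNA per cell cannot be told apart.

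**Figure D1:**
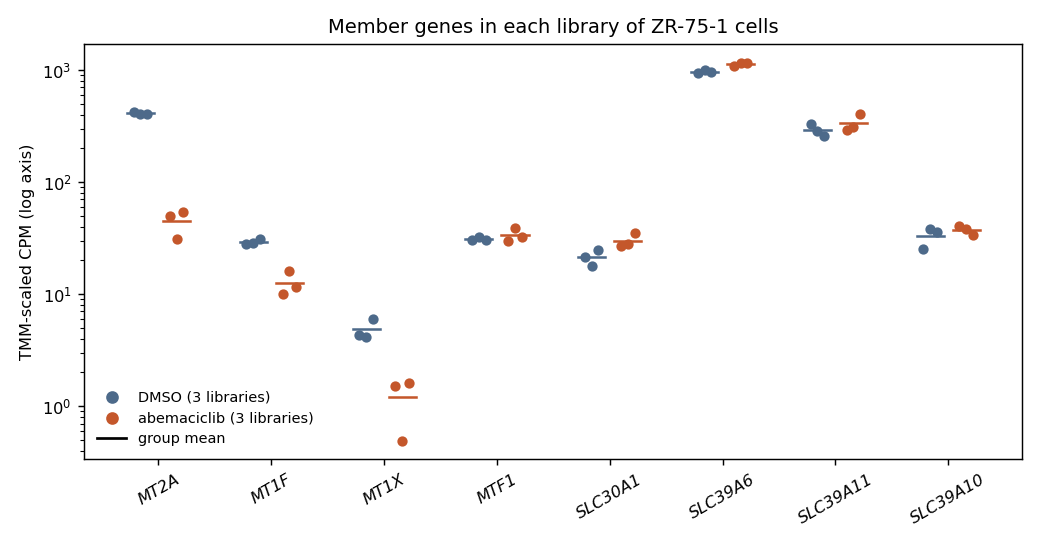
TMM-scaled CPM (log axis) of the 8 member genes with enough counts to be tested, in each of 3 DMSO and 3 abemaciclib libraries, with a line at each group mean. The abemaciclib points of MT2A, MT1F and MT1X lie below every DMSO point, and those of the other genes lie close to or a little above theirs.

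MT2A, the most widely expressed human metallothionein, carried the largest difference among the 10 genes. Its level was 423, 402 and 404 CPM in the 3 DMSO libraries and 50.2, 31.1 and 54.0 CPM in the 3 abemaciclib libraries. The groups lay far apart, and the spread within each was small beside the gap between them. MT2A was 9.13-fold lower with abemaciclib, a log2 fold change of −3.19 (standard error 0.14, 95% interval −3.47 to −2.91, adjusted P = 1.03e-16, quasi-likelihood test in edgeR). By the size of its fall, it ranked 81 among the 10863 genes tested.

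MT1F, a metallothionein of the MT1 subfamily, fell as well, with an interval that did not reach that of MT2A. Its level was 28.1, 28.5 and 31.2 CPM with DMSO and 9.98, 16.04 and 11.6 CPM with abemaciclib. No abemaciclib library reached the lowest DMSO library. The gene was 2.31-fold lower, a log2 fold change of −1.21 (standard error 0.23, 95% interval −1.68 to −0.74, adjusted P = 0.000182).

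MT1X, another MT1 gene, was sparse throughout. It had 15, 14 and 20 counts with DMSO and 5, 2 and 6 with abemaciclib, or 4.35, 4.16 and 6.06 CPM against 1.51, 0.493 and 1.62 CPM. The groups did not overlap, but the lower one rested on 13 counts in all, and the gene entered the test through its DMSO counts alone. The abemaciclib level was 24.3% of the DMSO level (95% interval 12.1% to 45.4%, counting error only). The log2 fold change was −2.0 (standard error 0.58, 95% interval −3.20 to −0.81, adjusted P = 0.0115). With DMSO replicate 3 left out the call was lost (−1.81, adjusted P = 0.0670 from edgeR), as it was with abemaciclib replicate 2 left out (−1.6, adjusted P = 0.0823).

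MT1E and MT1G, the remaining metallothioneins of the set, had 0 counts in every library. The upper limit behind such a 0, set at 3 counts, came to 0.740 to 0.909 CPM in a single library. Summed over a group, the limit was 0.297 CPM with DMSO and 0.271 CPM with abemaciclib. These limits cover counting error only. Of the 12 genes of the whole metallothionein family, 9 had 0 counts in all libraries and 3, all members, were detected, tested and lower. Among 9 metallothionein pseudogenes, 8 had 0 counts and MT1XP1 had 3 counts, all in abemaciclib replicate 3.

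The genes lie side by side in the genome. A total of 11 family members occupy 119.1 kb of chromosome 16 (GRCh38, 56565073 to 56684196). MT2A spans chr16:56608584-56609497 on the plus strand, MT1F chr16:56657731-56660698 and MT1X chr16:56682470-56684196, also on the plus strand. Between MT2A and MT1F, the genes MT1E, MT1M, MT1A and MT1B had no counts, and MT1G and MT1H between MT1F and MT1X had none either. The detected genes were therefore not neighbours of each other within the cluster.

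**Figure D2:**
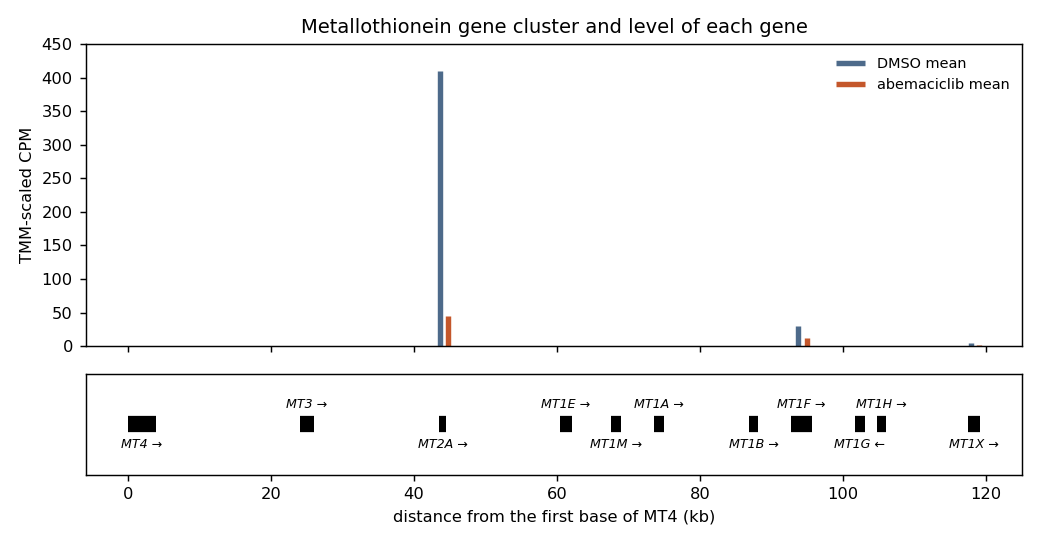
Mean TMM-scaled CPM of each metallothionein gene with DMSO and with abemaciclib (top, 3 libraries each) above the position and strand of the 11 genes of the cluster (bottom), as distance in kb from the first base of MT4. Signal came from MT2A, MT1F and MT1X, separated by genes without counts.

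Sequence shared within the family limits how reads are assigned. Among the 50-base stretches in the last 300 bases of each annotated transcript, 15.5% for MT2A, 9.2% for MT1F and 30.7% for MT1X also occurred in a transcript of another gene. The value was 28.7% for MT1G and 2.0% for MT1E, so for MT1E nearly the whole 3′ end was distinct in the annotation although its count was 0. How reads matching several genes were counted is not given in the sources used here, and the split of counts between near-identical members is uncertain. MT1X also shares 40.8% of its 404 transcript bases with a long non-coding RNA on the same strand (ENSG00000259827, 0 counts in every library). How reads in that shared stretch were counted is not given either, so the MT1X counts could be too low. None of the other members overlapped another annotated gene within the last 500 bases of its transcript.

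Because reads could move between members, the family was also summed. The sum was 456, 435 and 441.3 CPM in the DMSO libraries and 61.7, 47.6 and 67.3 CPM in the abemaciclib libraries. On this scale, which a swap of reads within the family leaves unchanged, the groups again did not overlap. Reads discarded for matching several genes would still be missing from the sum. MT2A made up most of the sum in every library, so it largely repeats the MT2A result. The sum was 7.62-fold lower with abemaciclib, a mean log2 difference of −2.93 (two-sided exact permutation test, P = 0.1, the floor for 3 against 3 libraries). Without MT2A, the remaining genes summed to a mean of 34.1 CPM with DMSO (SD 2.701, n = 3) and 13.8 CPM with abemaciclib (SD 2.56, n = 3).

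The makeup of the remaining pool also differed. MT2A held 92.9%, 92.5% and 91.6% of the family's counts with DMSO, but 81.4%, 65.3% and 80.3% with abemaciclib. Its exact 95% binomial interval, which covers counting error only, was 58.1% to 72.0% in abemaciclib replicate 2, the lowest library. It was 75.3% to 86.5% in abemaciclib replicate 1 and 74.8% to 85.1% in abemaciclib replicate 3. In DMSO replicate 3, the lowest of its group, it was 90.0% to 92.9%. The share of MT1F went from 6.17%, 6.56% and 7.07% with DMSO to 16.2%, 33.7% and 17.3% with abemaciclib. Neither gene's groups overlapped (two-sided exact permutation test, P = 0.1 for each, the smallest possible, adjusted P = 0.15 over 3 genes). The shares restate levels already given, and the share of MT1F is nearly what MT2A leaves. Both P are therefore no further support. MT1X held 0.955% to 1.37% with DMSO and 1.04% to 2.45% with abemaciclib, ranges that overlapped (exact permutation test, P = 0.2).

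**Figure D3:**
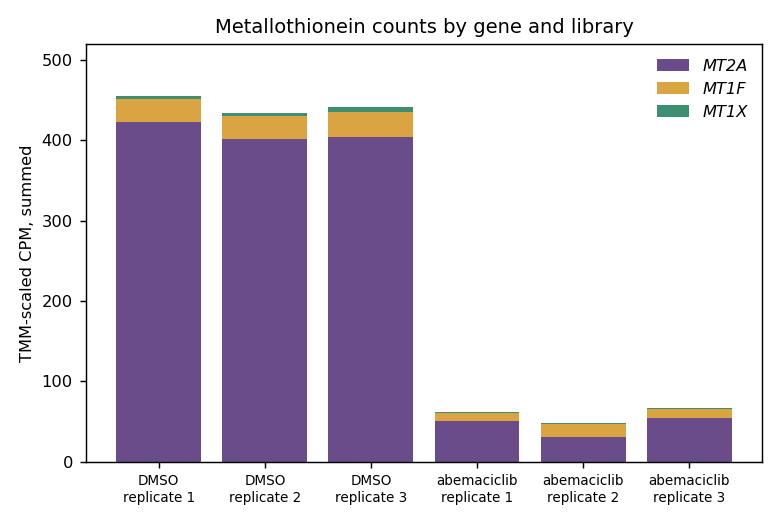
TMM-scaled CPM of MT2A, MT1F and MT1X stacked for each of the 6 libraries; the vertical axis starts at 0. The DMSO bars reach 435 to 456 CPM and the abemaciclib bars 47.6 to 67.3 CPM, with a larger MT1F part in abemaciclib replicate 2.

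The promoters of these genes were searched for the element through which MTF1 is known to act. The core of the metal response element was searched as TGCGCNC and TGCACNC, on both strands, in 300 bases around each start site (250 before and 50 after) in RefSeq's promoters on GRCh38.p14. Of the 10 genes, 7 had a promoter in that table, and MT1E, MT1F and MT1G had none there. MT2A held 8 matches, a number reached by 7 of 35116 promoters (0.0199%). MT1X held 4, which 0.601% of promoters reached, and SLC30A1 held 2, which 8.60% reached, while 29.6% of all promoters held at least 1. Among promoters within 5 percentage points of the same GC content, the shares were 0.0259% for MT2A, 1.06% for MT1X and 14.3% for SLC30A1. No matches overlapped each other in these promoters.

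The 250 bases before the start sites of MT2A, MT1X and SLC30A1 are shown because the first pair fell with abemaciclib and SLC30A1, itself a known MTF1 target, was not called. They are chr16:56608334-56608583 (plus strand), chr16:56682220-56682469 (plus strand) and chr1:211579162-211579411 (minus strand), each written 5′ to 3′ with core matches in capitals.
MT2A: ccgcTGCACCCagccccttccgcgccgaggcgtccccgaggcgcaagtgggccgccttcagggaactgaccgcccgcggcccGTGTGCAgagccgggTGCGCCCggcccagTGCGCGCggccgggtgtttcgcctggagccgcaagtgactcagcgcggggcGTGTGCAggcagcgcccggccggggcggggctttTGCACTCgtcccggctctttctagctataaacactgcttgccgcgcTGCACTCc
MT1X: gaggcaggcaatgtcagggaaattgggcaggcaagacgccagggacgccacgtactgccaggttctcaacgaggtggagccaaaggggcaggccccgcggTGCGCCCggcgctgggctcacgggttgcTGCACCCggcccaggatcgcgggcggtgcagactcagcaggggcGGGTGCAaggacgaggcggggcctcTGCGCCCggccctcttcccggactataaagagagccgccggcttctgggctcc
SLC30A1: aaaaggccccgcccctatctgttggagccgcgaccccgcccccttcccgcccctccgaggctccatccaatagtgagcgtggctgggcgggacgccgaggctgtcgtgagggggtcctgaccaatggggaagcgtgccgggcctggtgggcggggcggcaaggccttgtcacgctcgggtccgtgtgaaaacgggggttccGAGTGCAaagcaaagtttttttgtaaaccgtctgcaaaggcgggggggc

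In this stretch MT2A has 7 of its 8 matches, MT1X has all 4 and SLC30A1 has 1 of 2, and the others lie after the start site. SLC39A6 held 1 match, 1 of the 2 listed SLC39A10 promoters held 1, and MTF1 and SLC39A11 held 0. Matches were also found in promoters of genes without counts: the promoter of MT1H also held 8 matches, and MT1B and MT4 held 3 each, and none of these genes had a count in any library. A match is a run of letters and not a measured binding site, and binding was not measured in these libraries. The promoters shown were chosen by outcome, and a link between the number of matches and the levels was not tested.

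**Figure D4:**
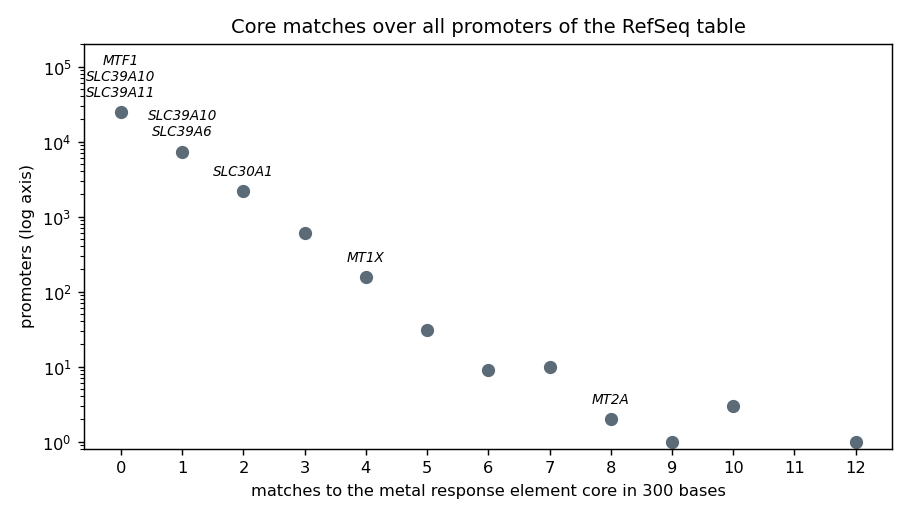
Number of promoters (log axis) by number of matches to the metal response element core in 300 bases, over the 35116 promoters of the RefSeq table; names mark the 7 member genes found there, with SLC39A10 shown once for each of its listed start sites. MT2A, with 8 matches, and MT1X, with 4, both sit in the upper tail, since 0.601% of promoters hold 4 or more.

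MTF1 itself, which lies on chromosome 1 (37809574 to 37859592), was not called. It was at 30.5, 32.4 and 30.3 CPM with DMSO and at 29.7, 38.7 and 32.2 CPM with abemaciclib. The ranges overlapped, with abemaciclib replicate 2 the highest. The log2 fold change was 0.11 (95% interval −0.26 to 0.48, adjusted P = 0.703 from edgeR). Its part in the metallothionein result was not tested. MTF1 protein and its activation by zinc were not measured.

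SLC30A1 encodes ZnT1, the exporter of the plasma membrane. It had 21.5, 17.8 and 24.8 CPM with DMSO and 26.6, 27.9 and 34.9 CPM with abemaciclib. The lowest abemaciclib library lay just above the highest DMSO library. The log2 fold change was 0.48 (standard error 0.21, 95% interval 0.06 to 0.90), with an unadjusted P = 0.0272 and an adjusted P = 0.0876 from edgeR, and it was not called under any alternative run. Set against MT2A within each library, a comparison chosen after the values were seen, MT2A had 19.7, 22.6 and 16.3 counts per count of SLC30A1 with DMSO and 1.89, 1.12 and 1.55 with abemaciclib. The log2 ratio differed by −3.71 between the groups (two-sided exact permutation test, P = 0.1, the smallest possible). The ratio restates levels already given for both genes, so this P is no further support.

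Of the 11 zinc exporter genes, 7 had enough counts to be tested, of which 1 was lower, a share near the 13.3% of all genes tested, and 0 were higher; 2 of them (SLC30A1 and SLC30A7) were higher at an unadjusted P under 0.05, and DESeq2 also called 0 higher. The gene called lower, SLC30A3, encodes ZnT3, known for loading zinc into synaptic vesicles of neurons. It had 25, 26 and 22 counts with DMSO and 1, 0 and 1 with abemaciclib. The gene entered the test through its DMSO counts alone. The abemaciclib level was 2.51% of the DMSO level (95% interval 0.298% to 9.38%, counting error only, adjusted P = 4.99e-06 from edgeR). The estimate for SLC30A7, a Golgi transporter, was 0.52 on the log2 scale (adjusted P = 0.133), and that for SLC30A6, of the secretory pathway, 0.55 (adjusted P = 0.314). SLC30A5, the partner of SLC30A6, was at 0.10 and the mitochondrial exporter SLC30A9 at 0.03. SLC30A4, with 1 to 20 counts per library, was at 0.86 with a wide error (standard error 0.60, adjusted P = 0.323), and 27.8% of the last 500 bases of its transcript lie opposite an antisense gene (0 counts). The estimate for SLC30A4 was 0.35 without DMSO replicate 2 and 1.94 without DMSO replicate 1. The median log2 fold change over the 7 exporters was 0.48.

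SLC39A6 (ZIP6) was the most abundant transporter measured, on chromosome 18 (36108531 to 36129385). Its level was 946, 994 and 963 CPM with DMSO and 1082, 1142 and 1156 CPM with abemaciclib. The groups did not overlap, but the shift was small. The log2 fold change was 0.22 (standard error 0.09, 95% interval 0.05 to 0.39), with an unadjusted P = 0.0154 and an adjusted P = 0.0570 from edgeR, just short of the threshold. With DESeq2 the adjusted P was 0.0120 (log2 fold change 0.23), and without abemaciclib replicate 3 it was 0.0426 with edgeR. ESR1, which encodes the ER, was higher by 0.83 on the log2 scale in the same libraries (adjusted P = 2.92e-07 from edgeR). Its part in the SLC39A6 result was not tested. The paper described no large change in ER expression in its treated ER-positive lines, and ER protein was not measured in these libraries.

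SLC39A10 (ZIP10), which forms a complex with ZIP6 that is known from cells entering mitosis, had 25.5, 37.7 and 35.7 CPM with DMSO and 40.8, 38.2 and 33.8 CPM with abemaciclib. The ranges overlapped, with DMSO replicate 1 the lowest. Its log2 fold change was 0.19 (95% interval −0.19 to 0.56, adjusted P = 0.500), beside the far lower MKI67 in the same libraries. SLC39A11 (ZIP11), an intracellular ZIP protein, had 331, 285 and 258 CPM with DMSO and 293, 307 and 402 CPM with abemaciclib. Its spread within each group was as wide as the gap between them, with abemaciclib replicate 3 the highest. The log2 fold change was 0.20 (95% interval −0.04 to 0.43, adjusted P = 0.222).

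Of the 14 zinc importer genes, 10 were tested, with 2 higher (against 12.5% of all genes tested) and a median log2 fold change of 0.19. No importer was lower (0 with edgeR, 0 with DESeq2 and 0 by unadjusted P under 0.05). Both genes called higher lie outside the member set. SLC39A3 (ZIP3), a plasma membrane importer, went from 31.6, 24.7 and 31.2 CPM with DMSO to 51.1, 56.7 and 33.2 CPM with abemaciclib. The third abemaciclib library was only just above the DMSO range. Its log2 fold change was 0.69 (adjusted P = 0.00817), and the call was lost without DMSO replicate 2 or abemaciclib replicate 2. SLC39A9 (ZIP9) went from 54.5, 64.5 and 51.5 CPM to 79.3, 84.4 and 70.5 CPM, higher by 0.46 on the log2 scale (adjusted P = 0.0148). Its call was lost without DMSO replicate 1, DMSO replicate 3 or abemaciclib replicate 2, and without abemaciclib replicate 2 neither importer was called. The remaining 5 non-member importers, SLC39A4, SLC39A7, SLC39A8, SLC39A13 and SLC39A14, had log2 fold changes from −0.16 to 0.27 and did not pass. SLC39A1 had 0 to 10 counts per library and was not tested. Of the last 500 bases of its transcript, 91.8% are shared with an overlapping gene on the same strand (0 counts in every library).

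**Figure D5:**
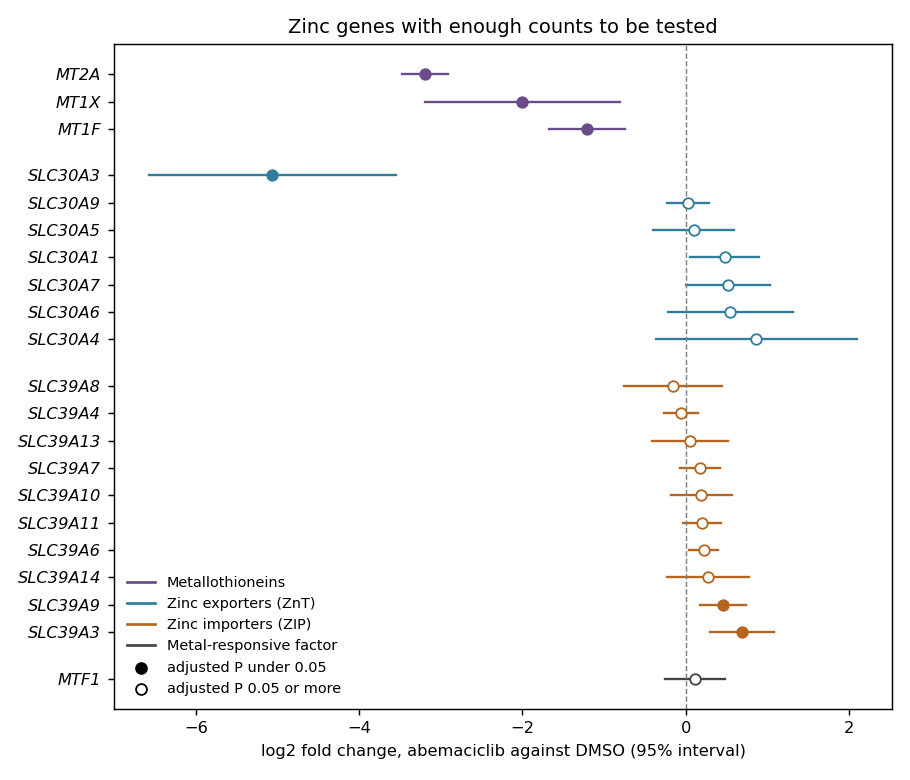
Log2 fold change with 95% interval (not adjusted for the number of genes), abemaciclib against DMSO, of every metallothionein, exporter and importer gene with enough counts, and of MTF1; filled points passed an adjusted P under 0.05. Of the filled points, the 3 metallothioneins and SLC30A3 lie to the left of 0, and SLC39A3 and SLC39A9 to its right. Among the open points, the intervals of SLC30A1, SLC30A7 and SLC39A6 also lie wholly to the right of 0.

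The order of levels changed around MT2A. With DMSO, SLC39A6 was highest (mean 968 CPM), then MT2A (409.7 CPM) and SLC39A11 (291 CPM), each above the next in every library. SLC39A10, MTF1 and MT1F followed at 33.0, 31.0 and 29.3 CPM, neighbours whose ranges overlapped, then SLC30A1 at 21.4 CPM and MT1X at 4.86 CPM. With abemaciclib, SLC39A6 (1127 CPM) and SLC39A11 (334 CPM) led. MT2A, at 45.1 CPM, came next and overlapped SLC39A10 at 37.6 CPM, which overlapped MTF1 at 33.5 CPM, which overlapped SLC30A1 at 29.8 CPM. MT1F at 12.6 CPM and MT1X at 1.21 CPM stood apart below them. Within the importers, SLC39A6 held 54.0% to 56.6% of all ZIP counts with DMSO and 56.2% to 57.2% with abemaciclib, ranges that overlapped. The total takes SLC39A1 as counted, so any of its reads left uncounted because of the overlapping gene are missing from it.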

How the data were processed

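The 6 libraries, 3 per group, were grouped by their labels alone. The authors used BBDuk to trim the single-end 3′ reads, STAR 2.7.5b for alignment to hg38 and featureCounts 2.0.1 with GENCODE genes for counting. Raw counts per gene were deposited, without normalization. Whether counting used strand is not given in the sources used here.

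Ensembl identifiers were matched to symbols for 60401 genes, and 255 had none. Positions and overlaps come from a GENCODE release newer than the authors' (same assembly), and promoters from RefSeq (GRCh38.p14). edgeR 4.0.16, run in R 4.3.3, tested the counts (glmQLFit and glmQLFTest after filterByExpr and TMM, two-sided, Benjamini–Hochberg adjustment over 10863 genes, threshold 0.05). Standard errors of log2 fold changes were derived from the F statistic. The common biological coefficient of variation was 13.2%. Replicates of a group differed by more than sampling noise, with a chi-square per degree of freedom of 2.84 to 7.29. Exact permutation tests were used for summed levels, shares and the ratio of MT2A to SLC30A1. Intervals of shares are exact (Clopper–Pearson).

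Counts were simulated for this comparison with the common biological coefficient of variation for every gene and 200 genes changed. With 10851 genes tested, the test recovered 78.1% of genes changed by 1 on the log2 scale and 100% of those changed by 2. In data simulated without changes, 0 of 10881 genes were called. The spread of real genes was not simulated gene by gene, so these figures need not hold for them. The analysis was repeated with DESeq2 1.42.0, its size factors, total counts only, no filter on low counts, at least 10 counts in every library, a replicate block and each library left out.

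The members and gene lists were chosen with earlier results of these data known. Named are the members, all tested metallothionein, exporter and importer genes, MKI67 and ESR1, and the 3 genes with the smallest adjusted P in each of 3 further lists (copper handling, metal stress and glucocorticoid response). COX17, HSPA1B, HMOX1 and the untested SLC39A1, SLC30A2, TMEM163, MT1XP1 and metallothionein genes at 0 outside the member set were named after their values were seen, and the luminal and other cell type markers, COL1A1 included, only as a check of the cell line.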

Additional observations from a re-analysis of the deposited data

How the results depend on the processing

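Across the alternatives, 3 member genes were called lower in every fit except where MT1X dropped out. MT2A kept its call in 12 of 12 fits, with log2 fold changes from −3.35 to −2.97, and so did MT1F, from −1.43 to −1.07. MT1X could not be tested with at least 10 counts in every library and was called in 9 of 11 fits. With DESeq2, 1 member (SLC39A6) was higher, and 0 to 1 were higher across fits that left out 1 library. At least 10 counts in every library removed SLC30A3, which left 0 exporters lower. Importers called higher numbered 0 (without abemaciclib replicate 2) to 3 with 1 library left out, and 1 without any 1 of the DMSO replicates. The summed metallothionein difference of −2.93 was −1.32 without MT2A. Within the sum of MT1F and MT1X, the share of MT1F rose by 4.66 percentage points and that of MT1X changed by −4.66 points, the reverse of its 0.871 points in the whole family. The cause was not tested for these shifts.

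Genes near 0 changed sign when 1 library was left out: MTF1 ranged from −0.0030 to 0.20, SLC30A5 from −0.042 to 0.21, SLC30A9 from −0.013 to 0.11, SLC39A8 from −0.41 to 0.15 and SLC39A13 from −0.14 to 0.22. With a replicate block, 1139 genes were higher and 1280 lower, and 3 members stayed lower with 0 higher. Deviations of same-numbered libraries correlated between −0.0959 and 0.0074, and those of differently numbered libraries between −0.0586 and 0.104. So few values cannot settle whether libraries with the same number shared a culture or a batch. Over all genes, 1354 were higher and 1442 lower in the reported fit. MT1X, SLC30A3 and SLC30A4 had fewer than 10 counts in at least 1 library, and SLC39A1, SLC30A2 and TMEM163 were too sparse to be tested.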

Other observations

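Copper, which metallothioneins also bind, is handled by its own chaperones and transporters, and the share of their genes that passed the test was near that of all genes. Of 15 listed genes, 14 entered the test; 3 rose and 1 fell in abemaciclib libraries, against 12.5% and 13.3% of all genes tested. ATOX1, the cytosolic copper chaperone, went from 80.1, 85.9 and 95.7 CPM with DMSO to 212, 191 and 177 CPM, higher by 1.15 on the log2 scale (adjusted p = 7.35e-09 from edgeR). STEAP2, a metalloreductase, went from 11.02, 10.4 and 9.995 CPM to 22.7, 22.7 and 24.6 CPM, also higher by 1.15 (adjusted p = 0.000534). SLC31A1, the copper importer CTR1, was higher by 0.50 (adjusted p = 0.0134), a call lost without DMSO replicate 1 or abemaciclib replicate 2. COX17, which carries copper to cytochrome oxidase, was the gene called lower, at −0.39 (adjusted p = 0.0149). The list's median log2 fold change was 0.12, against −0.0018 over all genes tested.

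Metallothioneins also respond to metal stress and to glucocorticoids, and genes known from these responses are given for description, since 25.7% of all genes tested were called in either direction (12.5% higher, 13.3% lower). Of 8 metal stress genes with enough counts, 3 rose and 1 fell. HSPH1 and HSPA1A, heat shock chaperones, had log2 fold changes of 0.40 (adjusted p = 0.00316 from edgeR) and 0.38 (adjusted p = 0.00401). HSPA1B, at 0.35 (adjusted p = 0.0320), was the third. Its coding sequence is nearly identical to that of HSPA1A. Whether their 3′ ends share sequence was not checked, so the split of reads between them may be uncertain. TXNRD1, a thioredoxin reductase, was at −0.58 (adjusted p = 0.00263). HMOX1, the haem oxygenase that cadmium induces, was at 0.13 on 8 to 19 counts per library and did not pass. Of 8 glucocorticoid-responsive genes tested, DUSP1 was higher at 0.98 (adjusted p = 0.00327), and KLF9 at −0.45 (adjusted p = 0.0247) and CEBPD at −0.52 (adjusted p = 0.0370) were lower. The call of KLF9 was lost with DESeq2, without DMSO replicate 3 or without abemaciclib replicate 2. CEBPD passed in 3 of 12 alternatives. Their part in the metallothionein result was not tested.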
